A study of Mus musculus with 7 samples.

Results

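The 10 genes described here encode the channels and transporters that move chloride, sodium and potassium across epithelia: the chloride channels Cftr and Ano1, the anion transporters Slc26a4, Slc26a6 and Slc26a9, the chloride loader Slc12a2, the potassium channel Kcnn4 and the sodium channel subunits Scnn1a, Scnn1b and Scnn1g. They were taken by exact gene symbol from a table of 31274 rows, and all 10 were found. RNA had been sequenced from uteri of intact CD-1 mice, which are outbred, given no treatment and collected at an age of 2 months. Estrus, the phase that follows the estradiol peak, was represented by 3 libraries, and diestrus, the phase in which progesterone prevails, by 4 libraries. Whether the libraries came from separate animals is not stated in the labels. The p-values therefore rest on the spread from library to library, which may be technical. Spearman correlations over the 13920 genes tested below were 0.916 to 0.974 between libraries of a stage and 0.82 to 0.919 between stages.

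Fluid in the uterine lumen is set by secretion against absorption. In a secreting epithelium, Slc12a2 brings chloride into the cell from the blood side together with sodium and potassium, potassium leaves again through channels such as Kcnn4, and chloride leaves to the lumen through Cftr, which opens on cyclic AMP signals, or through Ano1, which opens on calcium. In an absorbing epithelium, the epithelial sodium channel ENaC, built from the alpha (Scnn1a), beta (Scnn1b) and gamma (Scnn1g) subunits, lets sodium in from the lumen, the sodium pump expels it to the blood side, and water follows. In rodents, estrogen is known for fluid accumulation in the uterus and progesterone for its removal.

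Values are FPKM, fragment counts scaled for transcript length and sequencing depth. Of the 10 genes, 9 passed the filter of at least 1 FPKM in at least 3 libraries, and Scnn1g did not. In limma on log2(FPKM + 1) with Benjamini-Hochberg adjustment over 13920 tested genes (threshold 0.05), 3 of the 9 rose at estrus (Cftr, Kcnn4 and Slc26a9), 2 fell (Ano1 and Scnn1a), and 4 did not pass (Scnn1b, Slc12a2, Slc26a4 and Slc26a6). Those that fell numbered 1 when estrus replicate 2 was left out, since Scnn1a no longer passed, and 3 when diestrus replicate 4 was left out, since Slc26a6 then passed. Over all tested genes 31.1% passed, 17.2% higher and 14.0% lower in estrus. The 10 genes were chosen with earlier results of these data known, so their share is a description. The 3 estrus and 4 diestrus values did not overlap for 3 tested genes higher in estrus and 3 lower (Ano1, Scnn1a and Slc26a6), against 40.6% of all tested genes, 21.9% higher and 18.7% lower. An exact two-sided permutation test of single genes can give no p below 0.0286 with 3 against 4 libraries, and it gave that value for each of the 5 genes that passed. Those 5 had been picked by limma on the same libraries and had groups that did not overlap, so the permutation result is no separate support. Among them, Slc26a9 and Scnn1a met the filter only through the group in which they were high.

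**Figure D1:**
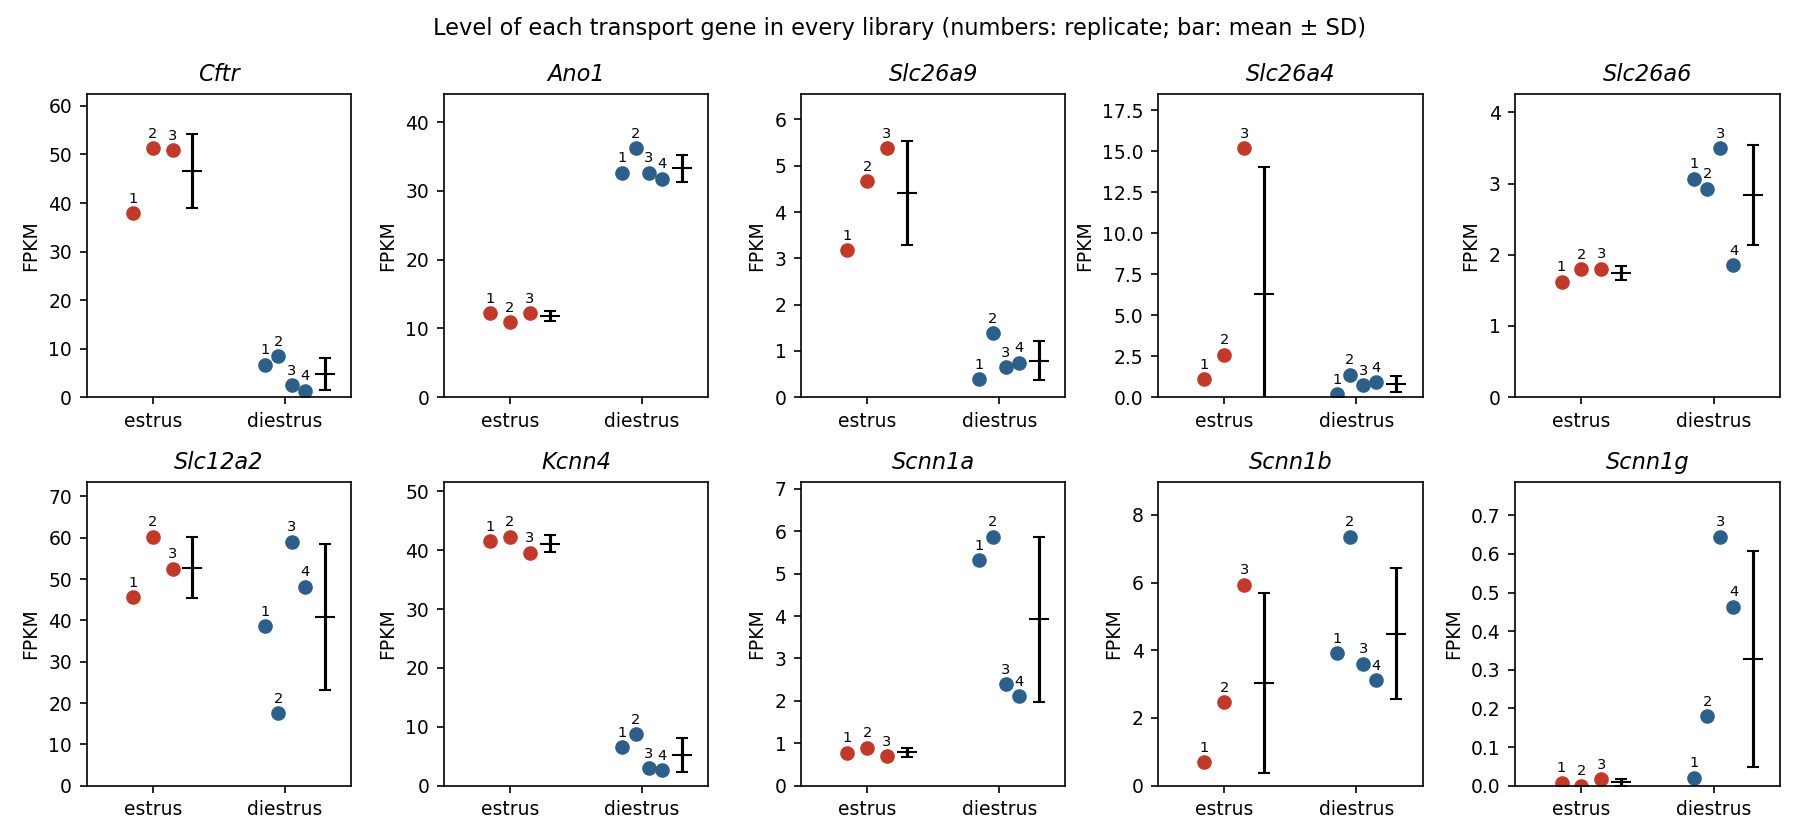
FPKM (y axis, linear, from 0, own scale in each panel) of each of the 10 genes in the 3 estrus libraries (red) and the 4 diestrus libraries (blue), numbered by replicate, with mean ± SD in black (the lower bar of Slc26a4 in estrus is cut at 0). Cftr and Kcnn4 lie at 37.9 to 51.3 and 39.6 to 42.3 FPKM in estrus, above every diestrus library, whereas Ano1 lies at 10.9 to 12.2 FPKM in estrus, below every diestrus library.

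Cftr, the cyclic AMP gated chloride and bicarbonate channel of secreting epithelia (GRCm38 chromosome 6, 18170687 to 18322768), stood at 37.9, 51.3 and 50.9 FPKM in estrus replicates 1 to 3 and at 6.70, 8.41, 2.51 and 1.36 FPKM in diestrus replicates 1 to 4. The groups did not overlap, and within diestrus replicates 1 and 2 were higher than replicates 3 and 4. The mean was 46.7 ± 7.62 FPKM in estrus (SD, n = 3) and 4.75 ± 3.35 in diestrus (SD, n = 4), a 9.84-fold ratio of means, and it gave a log2 fold change of 3.25 with a standard error of 0.47 and an adjusted p of 0.00357 by limma. That change was larger in size than those of 99.5% of tested genes. In estrus the mean level of Cftr exceeded those of 85.6% of tested genes, and in diestrus those of 23.7%. An antisense gene, Gm15592, shares up to 129 bases of exon with Cftr on the opposite strand, and strand use in the counting is not given in the sources used here. In bulk RNA, fewer cells of a type and less RNA per cell cannot be told apart, which holds for every gene below.

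Kcnn4, the intermediate conductance potassium channel that opens on calcium and lets potassium leave the cell during chloride secretion (chromosome 7, 24370263 to 24386690), stood at 41.5, 42.3 and 39.6 FPKM in estrus and at 6.51, 8.75, 2.95 and 2.66 FPKM in diestrus. The estrus libraries were within 3 FPKM of each other, and diestrus replicates 1 and 2 were again the higher pair. The mean was 41.1 ± 1.40 FPKM in estrus (SD, n = 3) and 5.22 ± 2.94 in diestrus (SD, n = 4), a 7.89-fold ratio, and it gave a log2 fold change of 2.89 with a standard error of 0.35 and an adjusted p of 0.00222 by limma. Kcnn4 and Cftr were within 2-fold of each other in all 7 libraries: the FPKM of Kcnn4 was 0.778 to 1.10 times that of Cftr in estrus and 0.972 to 1.95 times in diestrus. Kcnn4 is also used by lymphocytes and macrophages. Of 6 tested leukocyte markers, none rose and 4 fell, and the sum of all 7 listed markers was 199.1 to 355.3 FPKM in estrus and 430.3 to 1100 FPKM in diestrus. The part of these cells in the Kcnn4 difference was not tested.

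Slc26a9, an epithelial chloride transporter and channel that interacts with Cftr in human airway cells (chromosome 1, 131744022 to 131771504), was much less abundant, at 3.18, 4.66 and 5.38 FPKM in estrus and 0.387, 1.38, 0.643 and 0.748 FPKM in diestrus. The groups did not overlap. The mean was 4.40 ± 1.12 FPKM in estrus (SD, n = 3) and 0.79 ± 0.42 in diestrus (SD, n = 4), a 5.57-fold ratio, while its log2 fold change on the log2(FPKM + 1) scale, which compresses low values, was 1.60 with a standard error of 0.23 and an adjusted p of 0.00349 by limma. Slc26a9 passed the filter through its 3 estrus libraries, since 1 diestrus library reached 1 FPKM, and with no filter the adjusted p was 0.00838. The log2 fold change was 2.42 with 0.1 and 0.70 with 5 FPKM added as the pseudocount.

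Ano1, the calcium activated chloride channel also called Tmem16a (chromosome 7, 144588549 to 144751974), moved the other way. It stood at 12.2, 10.9 and 12.2 FPKM in estrus and at 32.6, 36.2, 32.7 and 31.8 FPKM in diestrus. Both groups were tight and far apart, with means of 11.8 ± 0.74 FPKM in estrus (SD, n = 3) and 33.3 ± 1.97 in diestrus (SD, n = 4). The log2 fold change was -1.43 with a standard error of 0.10 and an adjusted p of 0.000707 by limma, and by p-value Ano1 ranked 22 among the 13920 tested genes. In estrus Cftr was 3.11, 4.70 and 4.18 times as abundant as Ano1, and in diestrus 0.205, 0.232, 0.0769 and 0.0428 times. The more abundant of these chloride channel transcripts was thus Cftr in every estrus library and Ano1 in every diestrus library. Ano1 is also a marker of interstitial cells of Cajal and is present in smooth muscle. Kit, a receptor used to mark interstitial cells, was at 5.02 to 6.79 FPKM in estrus and 5.19 to 27.7 FPKM in diestrus. It did not pass (log2 fold change -1.19, limma adjusted p = 0.0976). Etv1, the other listed marker, was at 0.46 to 1.06 FPKM in estrus and 0.54 to 1.35 FPKM in diestrus and did not reach the filter. Of 6 smooth muscle markers, 1 rose and none fell, and their sum was 2845 to 5126 FPKM in estrus and 2486 to 6573 FPKM in diestrus. The part of these cells in the Ano1 difference was not tested.

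The sequences upstream of these 4 genes are shown because 3 of them rose and the other fell. Each is the 250 bases before a RefSeq transcription start (GRCm38.p6), read 5' to 3' on the gene's strand. Capitals mark matches on either strand to GGTCA, one arm of an estrogen response element, or to GGGCGG, the GC box read by Sp1 and related factors. The start used for Ano1 lies 13401 bases inside the gene as GENCODE M21 draws it, so it is an internal start.
Cftr (chr6:18170437-18170686, plus strand): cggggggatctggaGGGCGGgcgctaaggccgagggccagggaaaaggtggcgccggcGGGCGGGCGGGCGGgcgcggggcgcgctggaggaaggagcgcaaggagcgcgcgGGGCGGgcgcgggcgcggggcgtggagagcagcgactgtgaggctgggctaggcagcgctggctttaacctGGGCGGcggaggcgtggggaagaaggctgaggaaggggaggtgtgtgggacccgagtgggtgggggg
Kcnn4 (chr7:24370013-24370262, plus strand): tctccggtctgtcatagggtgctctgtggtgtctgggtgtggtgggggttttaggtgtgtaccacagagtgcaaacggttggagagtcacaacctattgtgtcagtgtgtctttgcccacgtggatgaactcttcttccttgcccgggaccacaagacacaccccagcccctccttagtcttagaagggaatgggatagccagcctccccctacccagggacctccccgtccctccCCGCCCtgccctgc
Slc26a9 (chr1:131743772-131744021, plus strand): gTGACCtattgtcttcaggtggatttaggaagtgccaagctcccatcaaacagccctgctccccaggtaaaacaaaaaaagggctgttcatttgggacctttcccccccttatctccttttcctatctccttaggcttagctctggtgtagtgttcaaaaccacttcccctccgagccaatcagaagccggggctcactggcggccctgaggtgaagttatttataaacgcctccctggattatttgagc
Ano1 (chr7:144738574-144738823, minus strand): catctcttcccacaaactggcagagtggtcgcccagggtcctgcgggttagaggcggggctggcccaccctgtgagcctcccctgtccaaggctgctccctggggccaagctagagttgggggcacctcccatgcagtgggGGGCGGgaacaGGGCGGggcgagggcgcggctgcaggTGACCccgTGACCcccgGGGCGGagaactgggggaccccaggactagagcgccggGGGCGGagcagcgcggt

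The Cftr window held 6 GC boxes, of which 3 overlap in a single run 192 to 179 bases before the start, and no GGTCA. The Ano1 window held 4 GC boxes and a pair of GGTCA matches, read as TGACC, that begin 72 and 64 bases before the start. The Slc26a9 window held a single GGTCA match at its far end, 249 bases before the start, and the Kcnn4 window a single GC box 14 bases before it. GGTCA occurs in 35.2% and GGGCGG in 32.7% of all 32851 such windows, so these matches are common. The whole palindromic estrogen response element, a GGTCA followed after 3 bases by TGACC, present in 0.0639% of windows, and the cyclic AMP response element TGACGTCA, present in 1.55%, were found in none of the 8 windows searched for the 10 genes. The progesterone or glucocorticoid motif TGTTCT, present in 16.1% of windows, was found in Slc26a4 alone. Scnn1a and Slc12a2 were not searched.

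The remaining anion transporters did not pass the test. Slc26a4, or pendrin, which exchanges chloride for bicarbonate or iodide (chromosome 12, 31519827 to 31559969), stood at 1.10, 2.60 and 15.2 FPKM in estrus and at 0.169, 1.37, 0.725 and 0.924 FPKM in diestrus. Estrus replicate 3 was far above the rest, and estrus replicate 1 lay below diestrus replicate 2. Slc26a4 passed the filter only through its estrus libraries, and with no filter its limma adjusted p was 0.160. The log2 fold change was 1.51 (95% interval 0.03 to 2.99, limma adjusted p = 0.106), and without estrus replicate 1 it was 2.13 with an adjusted p of 0.0494, whereas without estrus replicate 3 it was 0.66 with an adjusted p of 0.178.

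Slc26a6, a chloride, bicarbonate and oxalate exchanger (chromosome 9, 108853283 to 108913049), stood at 1.62, 1.80 and 1.81 FPKM in estrus and at 3.07, 2.93, 3.50 and 1.85 FPKM in diestrus. The groups were separated by less than 0.1 FPKM, since diestrus replicate 4 lay just above the estrus libraries. Its log2 fold change was -0.46 (95% interval -0.88 to -0.05, limma adjusted p = 0.0803), and without diestrus replicate 4 it was -0.60 with an adjusted p of 0.0311.

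Slc12a2, the sodium, potassium and chloride cotransporter Nkcc1 (chromosome 18, 57878678 to 57946821), was the most abundant of the 10 genes in mean FPKM in each group. It stood at 45.5, 60.2 and 52.6 FPKM in estrus and at 38.5, 17.6, 59.1 and 48.2 FPKM in diestrus. The groups overlapped, with a single low library, diestrus replicate 2. The log2 fold change was 0.48 with a 95% interval of -0.39 to 1.34 (limma adjusted p = 0.346), and without diestrus replicate 2 it was 0.13 with an adjusted p of 0.634.

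Among the ENaC subunits, Scnn1a, the alpha subunit without which the channel does not conduct well (chromosome 6, 125320659 to 125344943), stood at 0.774, 0.891 and 0.689 FPKM in estrus and at 5.32, 5.87, 2.39 and 2.10 FPKM in diestrus. The groups did not overlap, and diestrus replicates 1 and 2 were more than 2-fold above replicates 3 and 4. The mean was 0.78 ± 0.10 FPKM in estrus (SD, n = 3) and 3.92 ± 1.95 in diestrus (SD, n = 4). The log2 fold change was -1.37 with a standard error of 0.31 and an adjusted p of 0.0154 by limma, and the adjusted p was 0.0581 without estrus replicate 2. Scnn1a reached the filter of 1 FPKM in diestrus libraries alone, so it was tested only because it was high there, and in the fit with no filter the adjusted p was 0.0313. The size of its fold change depended on the pseudocount, at -2.05 with 0.1 and -0.60 with 5 FPKM added.

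Scnn1b, the beta subunit (chromosome 7, 121865038 to 121918514), stood at 0.695, 2.46 and 5.94 FPKM in estrus and at 3.91, 7.35, 3.60 and 3.11 FPKM in diestrus. The groups overlapped because estrus replicate 3 lay above 3 of the 4 diestrus libraries. The log2 fold change was -0.62 with a 95% interval of -1.69 to 0.46 (limma adjusted p = 0.331). Without estrus replicate 3 it was -1.12 with an adjusted p of 0.0712, and without estrus replicate 1 it was -0.11 with an adjusted p of 0.858.

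Scnn1g, the gamma subunit (chromosome 7, 121734479 to 121768475), did not pass the filter. It was listed at 0.0078, 0 and 0.017 FPKM in estrus and at 0.0204, 0.180, 0.645 and 0.463 FPKM in diestrus. Every diestrus library lay above every estrus library, although diestrus replicate 1 lay just above estrus replicate 3. The exact permutation test gave a p of 0.0571, and in the fit with no filter the adjusted p was 0.142. Its pattern within diestrus was the reverse of that of Scnn1a: replicates 3 and 4 were the higher pair.

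The summed FPKM of the 3 subunits was 1.48, 3.35 and 6.65 in estrus and 9.24, 13.4, 6.63 and 5.67 in diestrus, so estrus replicate 3 overlapped diestrus through its Scnn1b. Scnn1a made up 52.4%, 26.6% and 10.4% of that sum in estrus and 57.5%, 43.8%, 36.0% and 37.1% in diestrus. Scnn1g made up at most 0.53% in estrus and 0.22%, 1.34%, 9.72% and 8.16% in diestrus.

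Ratios of FPKM within each library set Cftr, as a gene of secretion, against Scnn1a and Scnn1b, as genes of absorption. Ano1, the other chloride channel of secretion, was not set against them. It was lower in estrus, at 10.9 to 12.2 FPKM against 31.8 to 36.2 FPKM in diestrus, so the ratios describe Cftr and not secretion genes as a whole. Scnn1a was at 0.689 to 0.891 FPKM in estrus, so ratios to it rest on low values there. Cftr was 48.9, 57.6 and 73.9 times as abundant as Scnn1a in estrus, and 1.26, 1.43, 1.05 and 0.647 times in diestrus. In diestrus both genes were higher in replicates 1 and 2 than in replicates 3 and 4, and their ratio stayed near 1. The mean log2 ratio was 5.89 ± 0.30 in estrus (SD, n = 3) and 0.07 ± 0.50 in diestrus (SD, n = 4), a difference of 5.82. Cftr was 54.5, 20.8 and 8.57 times as abundant as Scnn1b in estrus, and 1.72, 1.14, 0.698 and 0.438 times in diestrus. No test was made on these ratios, because the genes were chosen with results known.

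**Figure D2:**
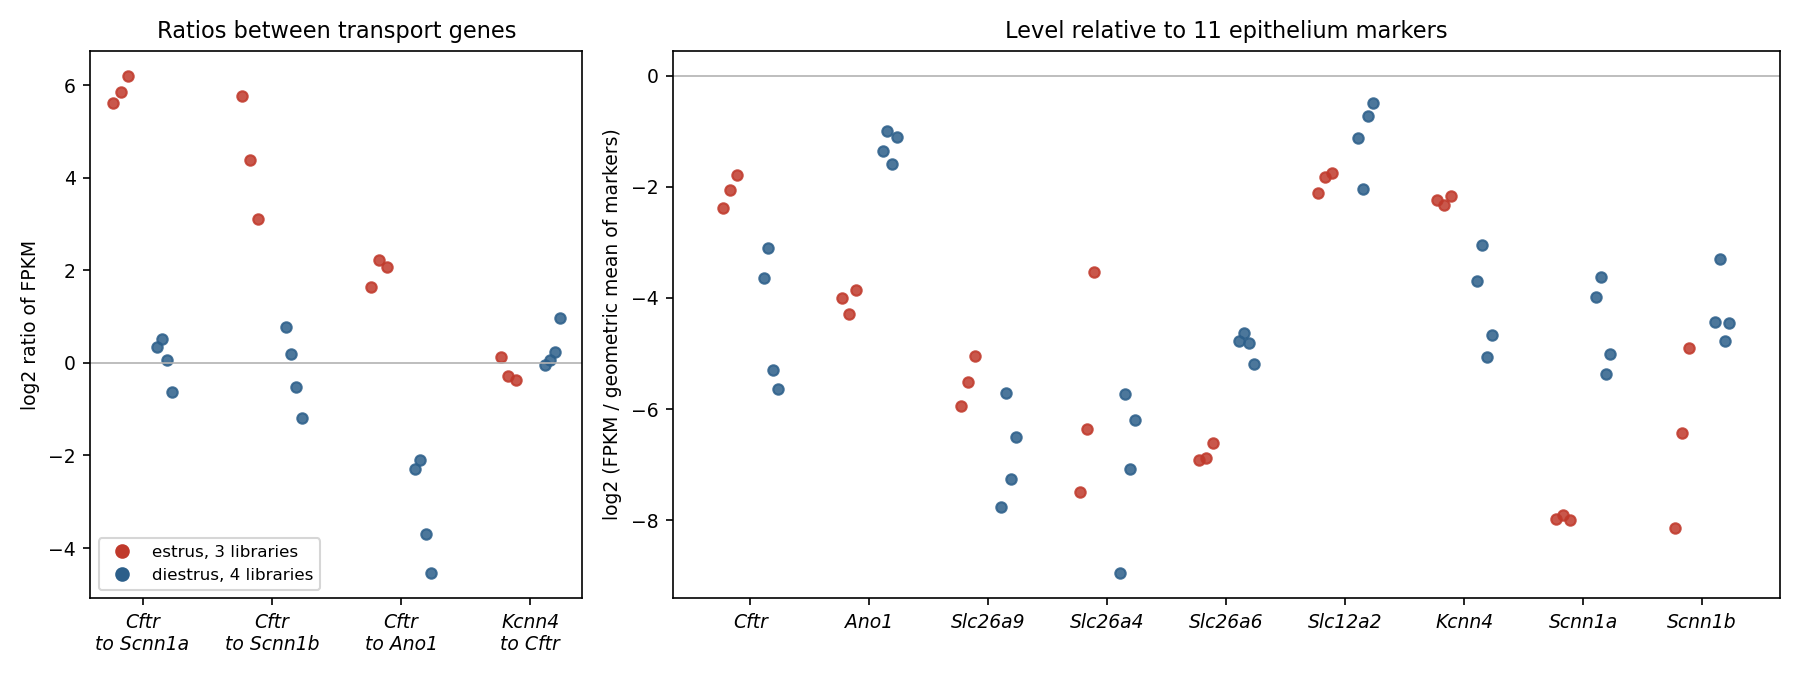
Left, log2 ratios of FPKM between pairs of transport genes; right, log2 of each gene's FPKM over the geometric mean of 11 epithelium markers; points are the 3 estrus libraries (red) and the 4 diestrus libraries (blue), and the grey line marks a ratio of 1. The log2 ratio of Cftr to Scnn1a lies at 5.61 to 6.21 in estrus and at -0.63 to 0.52 in diestrus, while the ratio of Kcnn4 to Cftr stays between -0.36 and 0.97 in all 7 libraries.

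Most markers of epithelium moved in the same direction as Cftr and Kcnn4. Cldn3 and Cldn4 were lower in estrus, with log2 fold changes of -0.35 and -0.57, but did not pass. Of 11 tested epithelium markers 8 rose and none fell, with a median log2 fold change of 1.41 against 0.05 for all tested genes, and their sum was 2922 to 3388 FPKM in estrus and 962.6 to 1380 FPKM in diestrus. Their geometric mean was 176.6 to 212.6 FPKM in estrus and 67.9 to 98.2 FPKM in diestrus. Relative to that mean, Cftr was higher in estrus by 2.35 on the log2 scale and Kcnn4 by 1.88, and for both the groups stayed apart. Slc26a9 was higher by 1.31 on that scale, but its groups then overlapped, and the difference was 0.32 with 1 added to each FPKM. The difference was -3.47 for Scnn1a, -2.79 for Ano1, -2.25 for Scnn1b and -1.95 for Slc26a6, each with groups that did not overlap. The share of all tested genes with groups apart on this scale was not counted. For Scnn1b, whose groups overlapped in FPKM, the gap was narrow, from -4.89 in the highest estrus library to -4.77 in the lowest diestrus library. The difference for Scnn1b was -1.43 without estrus replicate 1. With 1 added to each FPKM, the differences were -2.65 for Scnn1a, -2.70 for Ano1, -1.89 for Scnn1b and -1.74 for Slc26a6. Since the marker mean was itself higher in estrus, a gene of unchanged FPKM would be lower on this scale. Scnn1b and Slc26a6 did not pass on their own FPKM. With overlapping groups, the difference was -0.79 for Slc12a2 and 1.20 for Slc26a4. For Slc26a4 it ran from 0.07 without estrus replicate 3 to 2.04 without estrus replicate 1, and was 0.23 with 1 added to each FPKM. The part of the epithelial share of the tissue in these differences was not tested. Markers of the stratified epithelium of cervix and vagina summed to 4.06 to 22.4 FPKM in estrus and 1.10 to 2.85 FPKM in diestrus, and none of the 7 passed the filter. No marker of any list was at 0 in all libraries. Oviduct markers summed to 2.89 to 6.94 FPKM in estrus and 9.57 to 55.9 FPKM in diestrus, of which Ovgp1, the oviductal glycoprotein, was 53.2 FPKM in diestrus replicate 2. Of 2 oviduct markers tested none rose and 1, Ovgp1, fell. The other, Foxj1, was displaced the opposite way, at 1.67 to 4.37 FPKM in estrus and 0.23 to 2.13 FPKM in diestrus. It did not pass (log2 fold change 0.94, limma adjusted p = 0.113). Dnah5 and Tekt1, which did not reach the filter, were lower in estrus. Erythroid markers, 4 of them tested, neither rose nor fell, with sums of 359.0 to 1010 FPKM in estrus and 236.7 to 1139 FPKM in diestrus. Of 7 stroma markers none rose and 2 fell, with sums of 3130 to 4102 FPKM in estrus and 2678 to 5042 FPKM in diestrus.

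**Figure D3:**
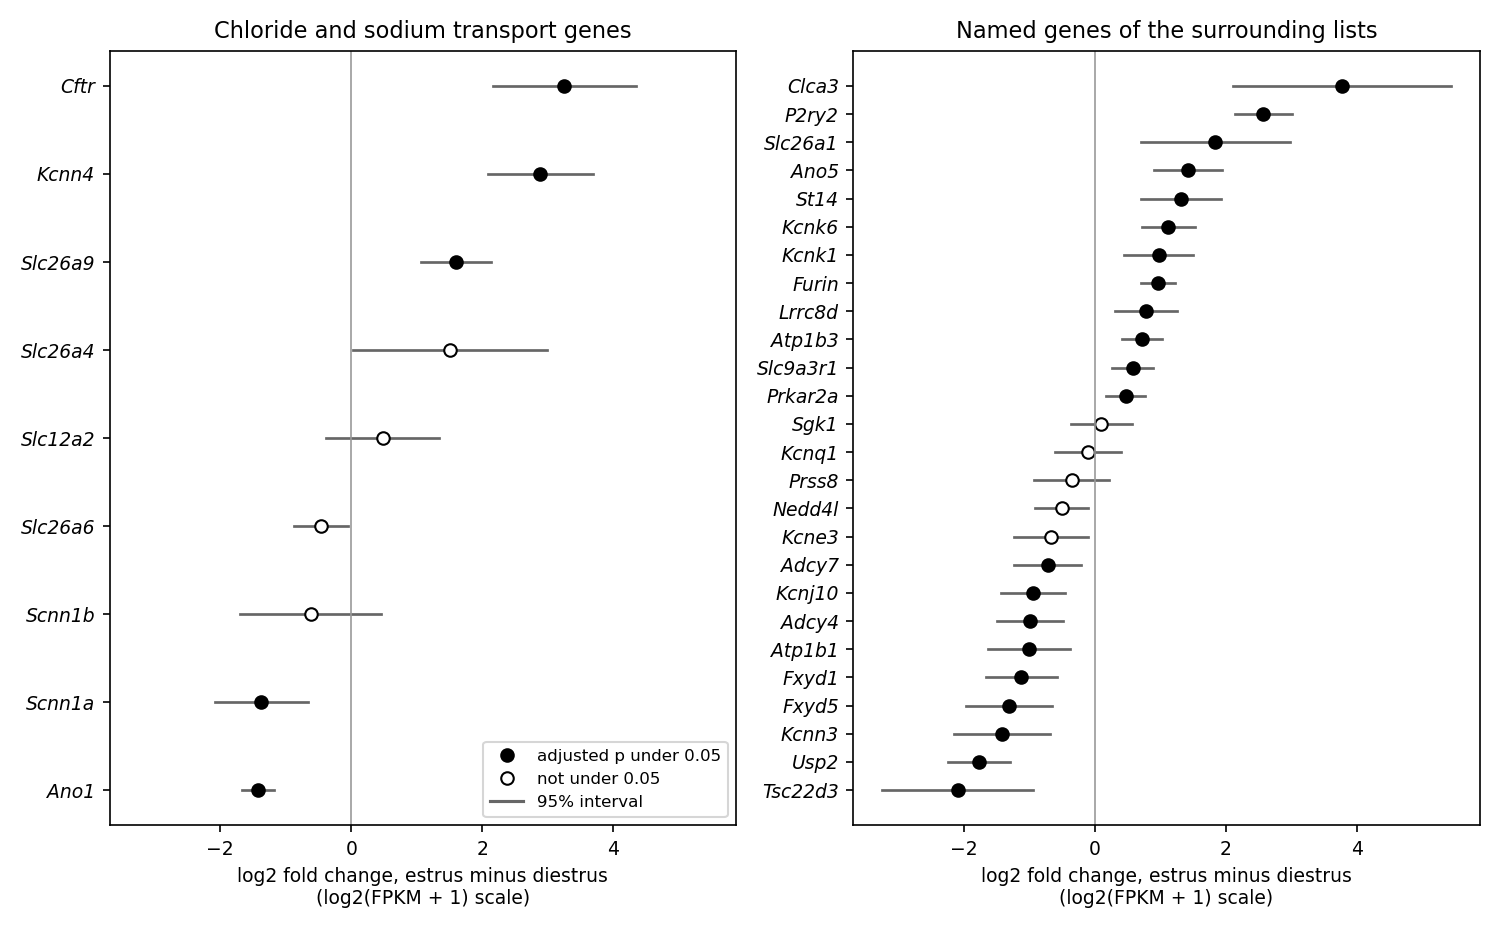
Log2 fold change in limma, estrus minus diestrus, of FPKM + 1 (x axis), with its 95% interval for the 9 tested transport genes (left) and the named genes of the surrounding pathways (right); filled points have a limma adjusted p under 0.05. Cftr at 3.25 and Kcnn4 at 2.89 lead the left panel and Ano1 at -1.43 closes it, while Clca3 at 3.78 leads the right panel and Tsc22d3 at -2.10 closes it.

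Of 15 tested regulators of ENaC, 3 rose and 2 fell, shares near the 17.2% and 14.0% of all tested genes, with a median log2 fold change of -0.03, and 3 passed in all without estrus replicate 1 or 2. Furin, a protease that cleaves and activates ENaC, rose to 74.8 ± 6.39 FPKM in estrus, against 37.8 ± 2.46 in diestrus (SD, n = 3 and 4, log2 fold change 0.96, limma adjusted p = 0.00198). St14, the membrane protease matriptase, rose by 1.32 (adjusted p = 0.0102). Tmprss4, another membrane protease, named after its value was seen, rose by 1.82 (adjusted p = 0.0439), a call lost without estrus replicate 1, 2 or 3 or diestrus replicate 1 or 2 (0.0686 to 0.130), with no filter (0.0762) and with quantile normalization (0.0704). Usp2, a deubiquitinase that opposes removal of ENaC from the membrane, fell to 2.37 to 2.53 FPKM in estrus, against 7.68 to 15.1 FPKM in diestrus (log2 fold change -1.77, adjusted p = 0.00194). Tsc22d3, the glucocorticoid induced protein Gilz that raises ENaC activity, fell by 2.10, with an adjusted p of 0.0188, but 0.0507 and 0.0797 without estrus replicates 1 and 2. Sgk1, the kinase through which aldosterone raises ENaC, stood at 33.0 ± 1.52 FPKM in estrus and 31.6 ± 9.39 in diestrus (log2 fold change 0.10, adjusted p = 0.728, -0.06 with quantile normalization). Without diestrus replicate 4, its highest library, the log2 fold change was 0.28 (adjusted p = 0.122), and without the other libraries it was 0.03 to 0.14. Nedd4l, the ubiquitin ligase that removes ENaC, stood at 21.3 ± 2.90 FPKM in estrus and 31.0 ± 5.81 in diestrus (log2 fold change -0.51, adjusted p = 0.0601, and 0.0196 without diestrus replicate 1, 0.0497 with median-ratio scaling and 0.0316 with quantile normalization). Prss8, the channel activating protease prostasin, stood at 30.0 ± 2.74 FPKM in estrus and 40.2 ± 13.7 in diestrus (adjusted p = 0.296).

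Subunits of the sodium pump were displaced in both directions. Of 16 tested genes of the pump, sodium-proton exchangers and bicarbonate transporters, 4 rose and 6 fell, against 17.2% and 14.0% of all tested genes. None passed when estrus replicate 2 was left out, 4 passed without estrus replicate 1, 5 without diestrus replicate 4, and 6 without estrus replicate 3 or diestrus replicate 2. Atp1b3, a pump beta subunit, rose to 157.4 ± 17.7 FPKM in estrus, against 95.3 ± 7.98 in diestrus (SD, n = 3 and 4, log2 fold change 0.71, limma adjusted p = 0.00796, and 0.0512 without estrus replicate 2). Atp1b1, the main beta subunit of epithelia, fell to 33.7 ± 11.9 FPKM in estrus, against 68.3 ± 20.1 in diestrus (log2 fold change -1.01, adjusted p = 0.0282). That p was 0.114 without estrus replicate 2, 0.0786 without estrus replicate 3 and 0.0607 without diestrus replicate 4. The pump regulators Fxyd1 and Fxyd5 fell by 1.13 and fell by 1.31 (adjusted p = 0.0120 and 0.0136, and 0.0581 and 0.0670 without estrus replicate 2). Slc9a3r1, a scaffold that binds Cftr at the apical membrane, rose by 0.58 (adjusted p = 0.0188, but 0.0636 and 0.0801 without estrus replicates 1 and 2, and 0.0895 with quantile normalization).

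Of 31 tested other chloride channels and anion transporters, 7 rose and 1 fell, with a median log2 fold change of 0.01. Among all tested genes, 17.2% rose and 14.0% fell. Without diestrus replicate 1 the changed genes numbered 13, and 2 without estrus replicate 2, 3 without diestrus replicate 2, 4 without estrus replicate 1 or diestrus replicate 4, and 5 without estrus replicate 3. Clca3, a secreted regulator of chloride currents made by mucous cells, stood at 267.5, 959.9 and 1894 FPKM in estrus and at 85.2, 91.8, 58.1 and 22.1 FPKM in diestrus (log2 fold change 3.78, SE 0.72, limma adjusted p = 0.00871). All 3 estrus libraries were above diestrus, and they differed more than 7-fold among themselves. Clca symbols have been reassigned and the genes resemble each other, so the row's identity and share of reads are uncertain. Ano5, an Ano1 relative that acts in muscle, rose to 4.34 ± 1.03 FPKM in estrus, against 1.01 ± 0.46 in diestrus (log2 fold change 1.42, adjusted p = 0.00463). Slc26a1, a sulfate and oxalate transporter, rose by 1.83 (adjusted p = 0.0277, but 0.112 and 0.0779 without estrus replicates 2 and 3, 0.0616 without diestrus replicate 2 and 0.0528 with no filter). Both Ano5 and Slc26a1 passed the filter only through estrus, since fewer than 3 diestrus libraries reached 1 FPKM for each. Lrrc8d, a subunit of volume regulated anion channels, rose by 0.78 (adjusted p = 0.0260, but 0.0854 and 0.112 without estrus replicates 1 and 2, and 0.0557 and 0.0666 without diestrus replicates 2 and 4). Slc26a7 and Ano6, picked once their values were known for the highest estrus means of their families, did not pass. Slc26a7 averaged 28.6 ± 11.9 FPKM in estrus and 11.3 ± 8.10 in diestrus (adjusted p = 0.0644, and 0.0122 without diestrus replicate 1), and Ano6 averaged 37.4 ± 3.87 FPKM in estrus and 36.4 ± 7.46 in diestrus (adjusted p = 0.828).

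**Figure D4:**
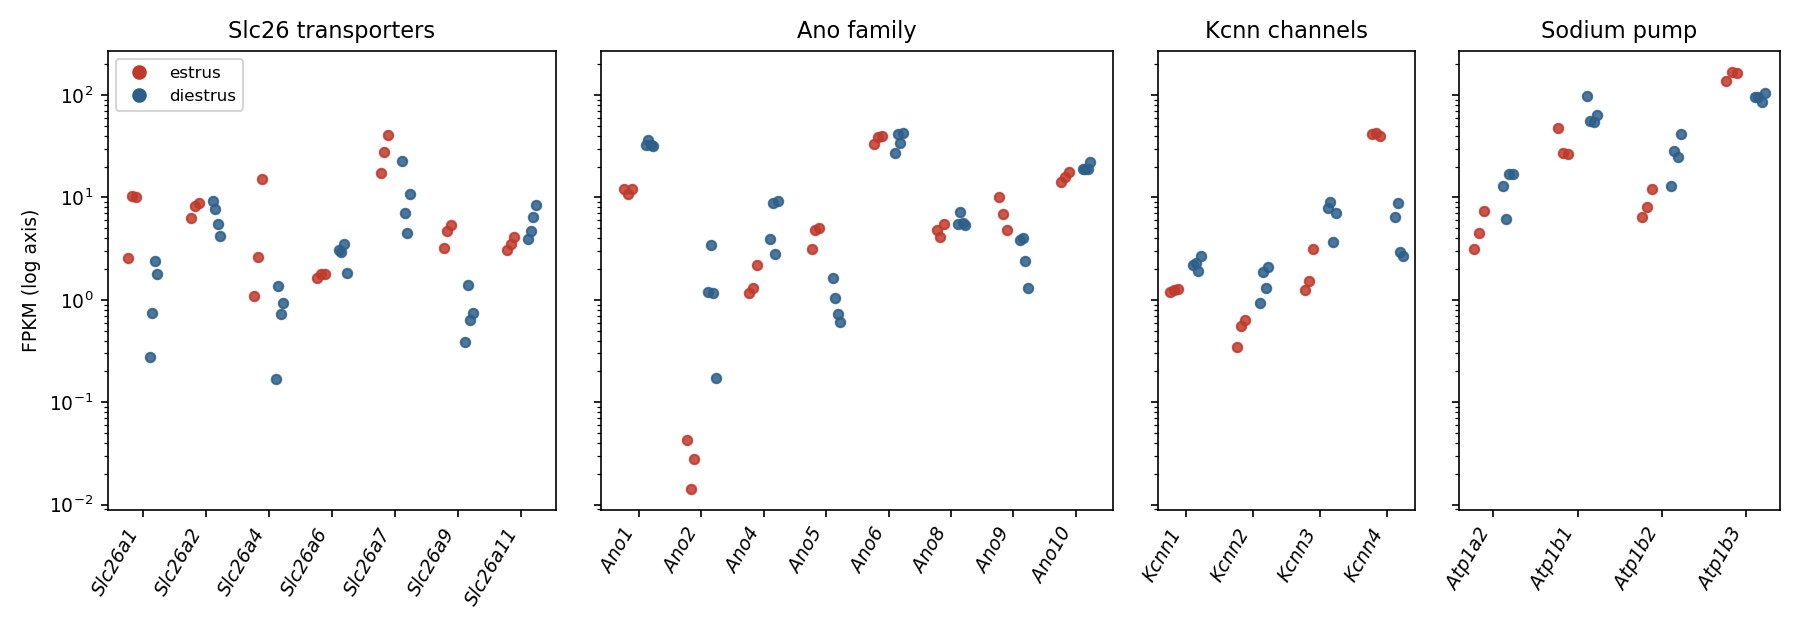
FPKM on a log axis of the tested Slc26 and Ano genes, the 4 Kcnn genes and 4 sodium pump subunits in the 3 estrus libraries (red) and the 4 diestrus libraries (blue). Kcnn4 lies above diestrus in every estrus library while Kcnn1, Kcnn2 and Kcnn3 lie below it, and Atp1b3 and Atp1b1 are displaced in opposite directions.

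The other Kcnn genes were displaced in the opposite direction to Kcnn4. Kcnn3, a small conductance potassium channel, fell to 1.97 ± 1.03 FPKM in estrus, against 6.94 ± 2.31 in diestrus (SD, n = 3 and 4, log2 fold change -1.42, limma adjusted p = 0.0151, but 0.0531 and 0.0702 without estrus replicates 1 and 2). Kcnn1 and Kcnn2, named after their values were seen, fell by 0.54 and fell by 0.74 (adjusted p = 0.0213 and 0.0270). Kcnn2 reached 1 FPKM in diestrus libraries alone, and with no filter its adjusted p was 0.0344. Both calls were lost without estrus replicate 1 (0.0649 and 0.0895), without estrus replicate 2 (0.0904 and 0.0924) and with quantile normalization (0.0700 and 0.0618), and that of Kcnn1 without diestrus replicate 4 (0.0562). The list of epithelial potassium channels does not hold Kcnn4. In it, 2 of 10 tested genes rose and 4 fell, against 17.2% and 14.0% of all tested genes. Only 3 passed in all with estrus replicate 1 left out, and 1 with estrus replicate 2 left out. The potassium leak channels Kcnk6 and Kcnk1 were the rises, with log2 fold changes of 1.12 (adjusted p = 0.00448) and 0.98 (adjusted p = 0.0176, but 0.0667 and 0.0508 without estrus replicates 2 and 3). Kcnj10, an inward rectifier tested only through its diestrus libraries, fell by 0.94 (-2.17 and -0.29 with pseudocounts of 0.1 and 5) and averaged 0.22 ± 0.08 FPKM in estrus and 1.40 ± 0.58 in diestrus (adjusted p = 0.0154, and 0.0748 without estrus replicate 2). Kcnq1, the cyclic AMP regulated basolateral channel, stood at 12.3 ± 4.02 FPKM in estrus and 13.1 ± 2.45 in diestrus (adjusted p = 0.727). Its partner subunit Kcne3 stood at 1.45 ± 0.31 FPKM in estrus and 3.01 ± 1.08 in diestrus (adjusted p = 0.0711, and 0.0209 without diestrus replicate 4).

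Of 18 tested genes that carry cyclic AMP and nucleotide signals to chloride channels, 2 rose and 2 fell, with a median log2 fold change of -0.15. The shares among all tested genes were 17.2% and 14.0%. P2ry2, the receptor through which luminal ATP and UTP raise calcium and open calcium activated chloride channels, stood at 20.6, 22.4 and 14.5 FPKM in estrus and at 2.22, 2.86, 2.52 and 1.84 FPKM in diestrus. The groups were far apart, and the log2 fold change was 2.57 with a standard error of 0.18 and an adjusted p of 0.000696 by limma. Ano1, a channel opened by such calcium signals, had the opposite direction. Prkar2a, a regulatory subunit of protein kinase A, rose by 0.47 (adjusted p = 0.0315). Leaving out an estrus library or diestrus replicate 3 or 4 gave 0.0618 to 0.128, and the p was 0.162 with quantile normalization. The adenylyl cyclases Adcy4 and Adcy7 fell by 0.99 and fell by 0.72 (adjusted p = 0.0141 and 0.0418). Adcy4 was at 0.0566 without estrus replicate 2, and Adcy7 ran from 0.0574 to 0.133 without estrus replicate 1 or 2 or diestrus replicate 1, 2 or 3, and was 0.0728 with no filter and 0.0566 with quantile normalization. In this list 1 gene passed without estrus replicate 2, and 2 passed without estrus replicate 1 or diestrus replicate 3.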

How the data were processed

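The deposited FPKM, fragments scaled for transcript length and mapped fragments, had been made by the authors for each of 7 libraries. Their tool and build were TopHat2 2.0.4 and mm10, per the submitters' processing notes. For the quantifier and its annotation, the name is not given in the sources used here. Libraries had been prepared with the Illumina TruSeq RNA kit per the labels' protocols. Columns were matched by sample description, and groups by title. The absolute depth is unknown. The spacing of low values gave relative depths of 0.92 to 1.36 times estrus replicate 1.

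Rows reaching 1 FPKM in 3 or more libraries were fitted in limma 3.58.1 (R 4.3.3) on log2(FPKM + 1) with an intensity trend, estrus minus diestrus, two-sided. The fit was also run on simulated data in which only genes at higher levels were changed, so that run does not cover genes of low FPKM. Intervals cover 95% and are not adjusted. Single genes were tested by exact permutation over 35 assignments. Coordinates are GENCODE M21 (GRCm38) and promoters RefSeq (8 of the 10 genes searched). Plots used matplotlib 3.10.9 (Python 3.11.15).

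The 10 genes and all lists were chosen with earlier results of these data known. Named genes are the 10, up to 4 genes per pathway list with the smallest p past 0.05, and Sgk1, Nedd4l, Prss8, Atp1b1, Kcnq1 and Kcne3; 1 further gene of the rule is not reported here. The planned adjustment of permutation p-values over the 10 genes was not made. Alternatives were pseudocounts of 0.1 and 5, no filter, a filter at a mean of 5 FPKM, quantile normalization, scaling by median ratios, leaving out each library and a replicate block. Same-numbered libraries are not stated to share an animal, and 0 columns were left over. Chromatin and binding data named in the design were not analysed here.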

Additional observations from a re-analysis of the deposited data

Results flagged for a closer look

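Of 44 genes examined, 1 had a diestrus library set apart from the other 3: Sgk1 stood at 45.7 FPKM in diestrus replicate 4, against 26.6 to 27.5 FPKM in the other diestrus libraries, a gap of 0.954 of the group's range, above Dixon's 95% critical value. Chance gives such a gap in about 1 in 20 groups, and 1 in 44 genes is not more than that. Groups of 3 libraries were not examined in this way.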

How the results depend on the processing

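Cftr, Ano1, Kcnn4 and Slc26a9 kept their direction and stayed under 0.05 in each of the 14 alternatives that tested them (13 for Slc26a9). Scnn1a, Slc26a4 and Slc26a6 each crossed the threshold without a single library: the log2 fold changes ran from -1.57 to -1.18 for Scnn1a, 0.66 to 2.13 for Slc26a4 and -0.60 to -0.38 for Slc26a6 as libraries were left out. The genes among the 10 that rose were then 3 to 4 and those that fell 1 to 3. With a mean of at least 5 FPKM only 1 of them could be seen to fall, because Scnn1a was not tested. Over all genes, leaving out a library gave 854 to 2866 higher and 579 to 2445 lower in place of 2393 and 1943, with the fewest without estrus replicate 2. The counts were 1527 and 1106 without estrus replicate 1 and 1420 and 1139 without diestrus replicate 4. The filter of 5 FPKM, which tests fewer genes, gave 1181 lower. Changed genes ran from 3 to 6 for ENaC regulators, 0 to 10 for the sodium pump list, 2 to 13 for other chloride channels, 1 to 6 for potassium channels and 1 to 5 for cyclic AMP and nucleotide signalling when libraries were left out. No filter gave 5 other chloride channels, the 5 FPKM filter 2 of them and 1 potassium channel, and quantile normalization 2 signalling genes. The causes were not tested. Quantile normalization turned Sgk1 to -0.063 and Ano6 to -0.12. With libraries left out Kcnq1 ran from -0.34 to 0.013 and Ano6 from -0.075 to 0.14. With 1 added to each FPKM, the difference in the log2 ratio of Cftr to Scnn1a was 4.63 in place of 5.82, since the addition compresses low values.

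Whether replicate numbers pair the libraries is not stated in the labels. Deviations of same-numbered libraries correlated at 0.198, 0.024 and 0.169. Estrus replicate 2 correlated better with diestrus replicate 1 (0.206), and estrus replicate 3 with diestrus replicate 4 (0.267). The remaining pairs ran from -0.326 to 0.024. With so few libraries, these correlations cannot decide whether libraries were paired. The replicate block, in which diestrus replicate 4 has no partner and adds nothing to the contrast, gave 1299 higher and 982 lower genes, 6 of the sodium pump list, 2 potassium channels and 2 signalling genes. Among the 10 genes it changed no call, with Cftr at 2.90 and Ano1 at -1.45. Kcnn1, Kcnn2, Kcnn3, Kcnj10, Lrrc8d, Prkar2a and Adcy7 did not pass under it (adjusted p = 0.0632 to 0.108).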
